A study of Mus musculus with 9 samples.

Results

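The genes of the cytosolic ribosome were followed on 9 mouse expression arrays of the distal small intestine. Members were all probe sets that the platform annotation ties to exactly 1 symbol made of Rpl or Rps plus a number and at most 1 of the letters a, x or l, or to Rplp0, Rplp1, Rplp2 or Rpsa, with pseudogenes and the Rps6k kinases left out. The rule used names alone and no measured value. It found 100 probe sets of 45101, for 46 of 18193 genes that had a probe set of their own: 22 genes of the small subunit and 24 of the large subunit. A further 110 probe sets named such a symbol together with others and were left out, so several ribosomal protein genes, among them Rplp1, Rpl3 and Rpl5, were not analysed here.

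The arrays formed 3 groups of 3. The Rag1 group was distal small intestine from mice labelled Rag1; that gene encodes part of the recombinase that joins antigen receptor gene segments in lymphocytes. The BP group carried the Rag1 label for the same tissue and in addition the letters BP, whose meaning is not explained there. The B6 group came from wild-type B6 mice. All 9 samples shared a 10-day colonization with the gut commensal Bacteroides thetaiotaomicron, and each pooled whole segments 10, 11, 12 and 14 of a small intestine cut into 16. The labels give no allele, age, sex or batch, and do not say that each array was a separate mouse, so p-values measure only the spread between these samples and 3 arrays a group limit the precision.

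Each ribosome joins a small subunit, which reads the mRNA, to a large subunit, which forms the peptide bond and passes the new chain out through a tunnel. Every growing cell makes the ribosomal proteins in matched amounts, and their mRNAs are among the most abundant of the intestine, whose epithelium renews itself all the time. Many of these mRNAs begin with a C followed by further pyrimidines, the terminal oligopyrimidine tract, through which mTOR signalling turns their translation up and down together.

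The start sites of the 6 genes with a called probe set, and of Rps10, whose probe sets disagreed in BP, are shown so that the pyrimidine runs near their starts can be compared. Each sequence is the 30 bases before and the 20 bases from a RefSeq start on GRCm38.p6, and capitals mark the longest run of C and T that overlaps the 10 bases before to 20 bases after the start, as far as it lies in the window.
Rpl35: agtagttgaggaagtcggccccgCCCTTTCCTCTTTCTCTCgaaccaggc
Rps10: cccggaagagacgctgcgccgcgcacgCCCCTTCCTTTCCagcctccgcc
Rps9: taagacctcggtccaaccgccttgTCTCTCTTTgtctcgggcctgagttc
Rpl13a: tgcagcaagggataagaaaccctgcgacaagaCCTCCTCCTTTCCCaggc
Rpl11: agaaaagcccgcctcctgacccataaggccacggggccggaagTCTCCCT
Rpl27: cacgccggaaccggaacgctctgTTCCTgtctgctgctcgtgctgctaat
Rpl37: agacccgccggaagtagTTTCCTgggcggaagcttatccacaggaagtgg
Rpl35 lies at chr2:39005112-39005161 on the minus strand, Rps10 at chr17:27635225-27635274 on the minus strand, Rps9 at chr7:3704011-3704060 on the plus strand and Rpl13a at chr7:45128726-45128775 on the minus strand. Rpl11 lies at chr4:136053374-136053423 on the minus strand, Rpl27 at chr11:101442215-101442264 on the plus strand and Rpl37 at chr15:5116583-5116632 on the plus strand.

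The table of starts held 48 promoters for 40 of the 46 genes. A pyrimidine run of at least 8 bases overlapped the start region in 43.8% of them, against 16.9% of all 32851 promoters, and a run of at least 10 in 31.2% against 8.41%. A C exactly at the annotated start followed by 4 or more pyrimidines was found in 8 of 48 (16.7%), against 2.51% of all. On either strand of the 300 bases around the start, CCGGAAG was present in 41.7% of member promoters and 8.86% of all, AAGATGG in 14.6% and 6.34%, and GGGCGG in 50% and 35.7%. These are counts of letters, and annotated starts can lie some bases away from the starts used in this tissue. Run length varied among the genes shown, from 5 bases in Rpl27 and 6 in Rpl37 to 17 in Rpl11 and 18 in Rpl35.

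The arrays differed in RNA quality. The 3-prime to 5-prime signal ratio of the beta-actin controls, which rises when labelled RNA is short or incomplete, was 1.53, 1.69 and 1.77 on the Rag1 arrays, 14.2, 2.43 and 20.2 on the BP arrays and 3.25, 1.76 and 4.17 on the B6 arrays. Gapdh ordered the groups alike, with 8.66, 1.81 and 17.1 in BP. BP replicates 1 and 3 thus stood apart from the other 7 arrays, and each called member difference between BP and Rag1 is given with and without them. The Rag1 gene read 1.37 to 22.8 on all 9 arrays, B6 included, too dim to check the labels. Markers of the labelled tissue were present: the 9 epithelial marker genes summed to 53912 to 59138 in Rag1, 47600 to 52731 in BP and 55731 to 59831 in B6, and none was listed at 0.

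Ribosomal protein mRNAs were bright in all 3 groups. The 100 member probe sets together held 3.59%, 3.33% and 3.88% of the summed intensity of the Rag1 arrays, 3.83%, 3.69% and 3.87% of the BP arrays and 3.77%, 3.44% and 3.66% of the B6 arrays. The 3 groups overlapped. In all, 89 member probe sets of 43 genes passed the filter on low values and were tested, and 69 of them, for 36 genes, had a mean of at least 10 on the normalized log2 scale (an intensity of about 1008) and are called bright below. The median standard deviation between arrays of a group was 0.14 in Rag1, 0.15 in BP and 0.086 in B6 for bright members. For all 27022 tested probe sets, most of them dimmer, it was 0.21, 0.44 and 0.23. The spread of bright probe sets of other genes was not taken, so the part of brightness in this difference was not tested.

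The other 11 member probe sets read between 1 and 49.8 on every array and were not tested. Rps16 had no other probe set, so nothing is reported of it. Rpl3l, a paralogue of Rpl3 used in striated muscle, read 3.32 to 19.9, and Rpl39l, a paralogue used in testis, 2.12 to 23.6, so neither rose above the dimmest fraction of the array in any group. The probe set of Rps27, at 20.3 to 81.3, and those of Rpl39, Rpl12 and Rpl14 were also dim, although these proteins are constant parts of the ribosome. Such a level speaks of the probe set and not of the gene, since levels of different probe sets are not comparable.

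**Figure D1:**
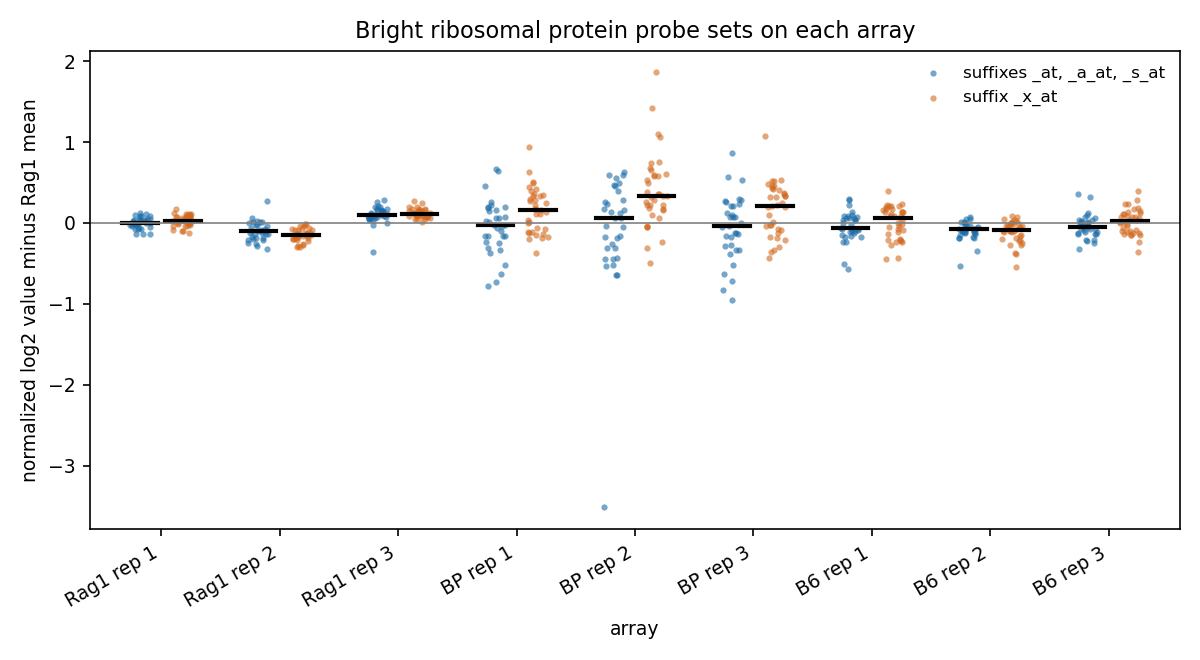
Normalized log2 value of each of the 69 bright ribosomal protein probe sets minus its mean over the Rag1 arrays (vertical axis, log2 units), for each of the 9 arrays; blue points are probe sets with the suffixes _at, _a_at and _s_at, orange points those with the suffix _x_at, and bars are medians. The orange medians of the BP arrays lie at 0.16, 0.34 and 0.21, and the lone low point on BP replicate 2 is Rpl27a.

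The comparison of wild-type with Rag1 intestine asks what the presence of lymphocytes and antibody changes in a colonized gut. None of the 89 ribosomal protein probe sets differed between B6 and Rag1 by limma with Benjamini-Hochberg adjustment over 27022 probe sets (0 of 89, where 0.329% of all tested probe sets were called). At an unadjusted p under 0.05 there was 1 of 89 (1.12%), against 5.56% of all. The median difference of the members was -0.038 on the log2 scale, with 37 above and 52 below 0, and that of all tested probe sets was -0.010; centring each array on its median instead turned the member median to 0.079.

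The intervals bound the change that these arrays could have missed. For 82 of the 89 probe sets the 95% interval of the B6 minus Rag1 difference lay within a 2-fold change in either direction, and for 60 within 1.5-fold. Among bright members these counts were 67 and 58 of 69. The widest interval of a bright member, -1.85 to 1.77, belonged to Rpl27a, whose spread came from 1 BP array described below.

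The lowest unadjusted p, 0.0412, came from Rps27l, a paralogue of Rps27 known as a p53 target gene. Its probe set 1423254_x_at read 2627, 2262 and 3019 in Rag1, 2094, 2405 and 1700 in BP and 2224, 1992 and 2045 in B6. All B6 arrays lay below all Rag1 arrays, while BP overlapped both. The difference between B6 and Rag1 was -0.32 ± 0.14 (SE; adjusted p = 0.865), and the gene's other bright probe sets gave -0.34 ± 0.21 and -0.34 ± 0.23 (adjusted p = 0.999 for both). The next smallest p-values belonged to Rpl11 (-0.28 ± 0.13, adjusted p = 0.928), a dim probe set of Rps4x (-0.60 ± 0.31, adjusted p = 0.969), Rpl7 (-0.31 ± 0.17, adjusted p = 0.981) and Rps10 (-0.17 ± 0.10, adjusted p = 0.999). None of these differences passed the test.

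Overlap between the groups was counted on the normalized values. In 12 of 89 member probe sets (13.5%) every B6 array lay below every Rag1 array, where 8.7% of all tested probe sets did, and in 0 of 89 every B6 array lay above, against 9% of all. With median centring the count of lower members was 4 (4.49%, against 7.66% of all), and with the values as deposited 10 (11.2%, against 14% of all). Of these 3 scalings only quantile normalization put the members' share of lower probe sets above that of all probe sets. The count of higher members was 0 of 89 in all 3, against 5.1% of all as deposited and 8.97% with median centring. Lymphocyte markers moved with the same comparison: 3 of 4 tested T cell marker genes and 2 of 5 B and plasma cell marker genes were called higher in B6. Summed T cell markers read 164 to 192 in Rag1, 122 to 246 in BP and 508 to 525 in B6, and B and plasma cell markers 74.4 to 89.4, 56.8 to 158 and 3704 to 10100. The part of these cells in the ribosomal protein values was not tested. In such bulk samples a change in the number of cells of a type and a change of RNA per cell cannot be told apart.

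**Figure D2:**
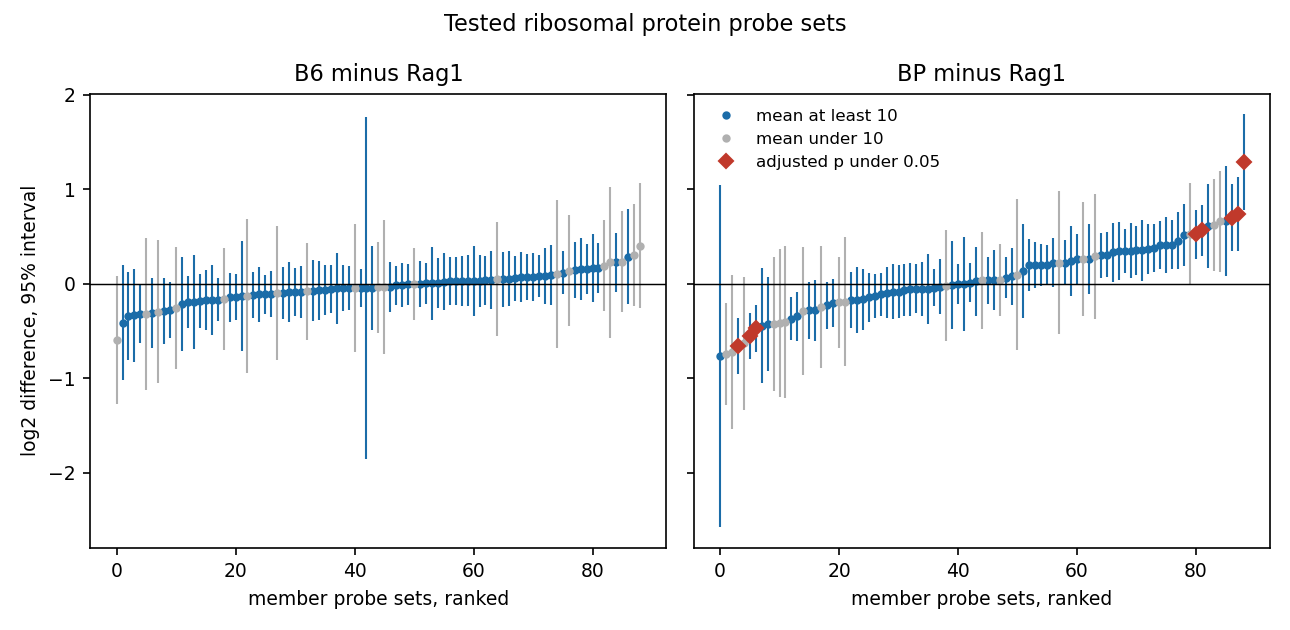
Difference between B6 and Rag1 (left) and between BP and Rag1 (right) in log2 units for the 89 tested ribosomal protein probe sets, each panel ranked by its own difference (horizontal axis, rank). Points are estimates, vertical lines 95% intervals, grey marks a mean under 10, and red diamonds mark an adjusted p under 0.05, with none on the left and 8 on the right.

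Between BP and Rag1, 8 of the 89 probe sets were called (8.99%, where 3.8% of all tested probe sets were called). There were 5 higher in BP (5.62%, against 1.1% of all) and 3 lower (3.37%, against 2.7%), and the 6 genes were Rps9, Rpl35, Rpl27 and Rpl37 among the higher and Rps9, Rpl11 and Rpl13a among the lower, with Rps9 on both sides. With the values as deposited, or with median centring, the split was 1 higher to 3 lower. Ribosomal proteins are bright, and bright probe sets were called more often: among 1490 bright probe sets of other genes 9.93% were called, and among the 69 bright members 11.6%. The count was not stable to the arrays used, and neither was that of all probe sets. It ranged from 0 without Rag1 replicate 1 or 2 (0.0666% and 0.0851% of all tested probe sets) to 25 without BP replicate 2 (28.1%, against 19.6% of all). It was 1 without Rag1 replicate 3, BP replicate 3 or B6 replicate 3 (0.785%, 0.825% and 1.68% of all), 2 without BP replicate 1 or B6 replicate 1 (2.21% and 1.72% of all), and 28 without BP replicates 1 and 3 (31.8%, against 22.1% of all), when the lone BP array is assumed to vary like the other groups.

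As a whole the ribosomal proteins did not move one way. The median BP minus Rag1 difference was 0.036, with 48 above and 41 below 0, beside -0.045 for all tested probe sets, and it turned to -0.0742 with the values as deposited and to -0.0974 with median centring, where the median of all tested probe sets was -0.119. In 28 of 89 member probe sets (31.5%) every BP array lay above every Rag1 array, where 9.33% of all did, and in 11 (12.4%) every BP array lay below, against 14.2% of all. At an unadjusted p under 0.05 there were 30 member probe sets (33.7%, against 20% of all), of which 24 were higher (27%, against 7.62% of all) and 6 lower (6.74%, against 12.4% of all). These counts were made with quantile normalization only, so their hold under other scalings is not known. With median centring the adjusted calls were 1 higher and 3 lower. Intervals within a 2-fold change covered 73 of the 89 probe sets and intervals within 1.5-fold covered 39.

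Rps9, a small subunit protein, gave the largest called difference. Probe set 1434624_x_at read 1035, 952 and 1376 in Rag1, 1952, 4272 and 2079 in BP and 1470, 1161 and 1478 in B6. All BP arrays lay above all others, with BP replicate 2 far above the rest, and B6 overlapped Rag1. The difference was 1.29 ± 0.23 (adjusted p = 0.0177), and it was 1.02 without BP replicate 2 (adjusted p = 0.00058) and 1.87 without BP replicates 1 and 3 (adjusted p = 0.000128). Over 22 alternatives it lay between 1.02 and 1.87 and kept the call in 19; it lost it without Rag1 replicate 1 (adjusted p = 0.0991), without Rag1 replicate 2 (0.0944) and with only the groups compared (0.0618).

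The other bright probe set of the same gene went the opposite way. Rps9 1433689_s_at read 4171, 3823 and 4595 in Rag1, 2566, 3081 and 2329 in BP and 3842, 3911 and 3749 in B6. Here all BP arrays lay below all others. The difference was -0.56 ± 0.11 (adjusted p = 0.0252), -0.53 without BP replicates 1 and 3 (adjusted p = 0.0159), and between -0.684 and -0.496 over 22 alternatives, of which 14 kept the call with adjusted p-values from 0.00178 to 0.134. The call was lost without any 1 of the Rag1 replicates, BP replicate 3 or B6 replicate 1 or 3. The remaining probe set of Rps9, 1426958_at, read 45.3 to 78.6 and gave -0.02 ± 0.27 (adjusted p = 0.978).

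Rpl11 binds the 5S ribosomal RNA together with Rpl5, and outside the ribosome it can hold Mdm2 away from p53. Its only probe set read 3307, 3032 and 3485 in Rag1, 1876, 2268 and 1710 in BP and 2234, 2953 and 2745 in B6. BP and B6 both lay below Rag1 on every array and overlapped each other. The BP minus Rag1 difference was -0.66 ± 0.13 (adjusted p = 0.0261), with -0.647 when BP replicates 1 and 3 were left out (adjusted p = 0.0172). Adjusted p-values over 22 alternatives ran from 0.00224 to 0.123 and 14 kept the call, which was lost without any 1 of the Rag1 replicates (0.0952 to 0.123), BP replicate 1 or 3 (0.0536 and 0.0754) or B6 replicate 3 (0.0526).

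Rpl13a is a large subunit protein that interferon-treated cells release to silence selected mRNAs. Probe set 1417608_a_at read 4436, 4014 and 4780 in Rag1, 2929, 3239 and 2665 in BP and 3898, 4029 and 4234 in B6, so that BP lay below both other groups. It differed by -0.47 ± 0.11 (adjusted p = 0.0417), and by -0.536 without BP replicates 1 and 3 (adjusted p = 0.0142), a call that 10 of 22 alternatives kept (adjusted p from 0.00834 to 0.194) and that was lost when any 1 array other than BP replicate 2 was left out. Of its other probe sets 1455485_x_at gave 0.35 ± 0.12 (adjusted p = 0.126) and 1455001_x_at gave 0.41 ± 0.12 (adjusted p = 0.0736), both above 0 and short of the threshold. The last, 1433928_a_at, stood at 0.04 ± 0.17 (adjusted p = 0.929).

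Rpl35 sits at the rim of the peptide exit tunnel, where it helps to receive factors that act on the new chain. Probe set 1436840_x_at read 3381, 3324 and 4069 in Rag1, 4421, 5659 and 4456 in BP and 4184, 3545 and 4184 in B6. All BP arrays were above all others. The difference was 0.56 ± 0.12 (adjusted p = 0.0321), and 1455950_x_at gave 0.52 ± 0.12 (adjusted p = 0.0365). Without BP replicates 1 and 3 the 2 values were 0.646 (adjusted p = 0.0117) and 0.595 (adjusted p = 0.0154). Over 22 alternatives their calls held in 10 and 9, with adjusted p-values up to 0.182 and 0.245, and among single arrays left out in 2 of 9 for each, namely BP replicate 2 and B6 replicate 2. The probe set 1416243_a_at of Rpl35, whose probes match transcripts of 1 gene by the maker's suffix, read 4013, 3695 and 4511 in Rag1 and 3056, 3732 and 2827 in BP, at -0.20 ± 0.12 (adjusted p = 0.363).

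Rpl27 and Rpl37, both of the large subunit, were the remaining genes called higher. Rpl27 1448217_a_at read 1267, 1078 and 1453 in Rag1, 1843, 2102 and 2061 in BP and 1478, 1192 and 1640 in B6, a difference of 0.70 ± 0.16 (adjusted p = 0.0398) that fell to 0.559 (adjusted p = 0.0557) without BP replicates 1 and 3. Rpl37 1438291_x_at read 1250, 990 and 1267 in Rag1, 1646, 2684 and 1490 in BP and 1347, 1087 and 1097 in B6, a difference of 0.74 ± 0.18 (adjusted p = 0.0444) that rose to 1.07 (adjusted p = 0.00167) without them. In both of these probe sets BP lay above all other arrays. Each call held in 8 of 22 alternatives, with adjusted p-values up to 0.172 and 0.168. Of single arrays left out, only BP replicate 2 kept the Rpl37 call, and only BP replicate 2 and B6 replicate 2 kept that of Rpl27. The other bright probe sets of Rpl27 were not called and lay on both sides of 0. Its brightest, 1416099_at, gave -0.096 ± 0.12 (adjusted p = 0.734), and 1453096_x_at gave 0.52 ± 0.15 (adjusted p = 0.0811).

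Probe sets of the same gene disagreed more in BP than in B6. The suffix of a probe set records how unique its probes are by the maker's design: _x_at and _s_at probes are shared with other transcripts, which for ribosomal protein genes include many processed pseudogenes. Among bright members the 36 probe sets with the suffix _x_at had a median BP minus Rag1 difference of 0.21, with 26 above 0, and the 33 with other suffixes had -0.086, with 13 above 0. Over every alternative run with these probe sets the first median exceeded the second, by 0.219 to 0.354. For B6 minus Rag1 the medians were 0.0041 and -0.049.

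That division was not particular to ribosomal proteins. Among bright probe sets of all other genes, the 293 with the suffix _x_at had a median BP minus Rag1 difference of 0.21 and the 1197 with other suffixes had -0.12. Calls were made for 10.9% and 9.69% of them, beside 11.1% and 12.1% of the bright members. The beta-actin ratio, a measure of where along the transcript signal is lost, was highest in the same group, and its part in the division was not tested. On BP replicate 2, the BP array with the lowest ratio, the median of the bright _x_at members was 0.34 above the Rag1 mean, against 0.16 and 0.21 on replicates 1 and 3. The bright members with other suffixes also stood highest of the BP arrays there, at 0.058, against -0.031 and -0.038.

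**Figure D3:**
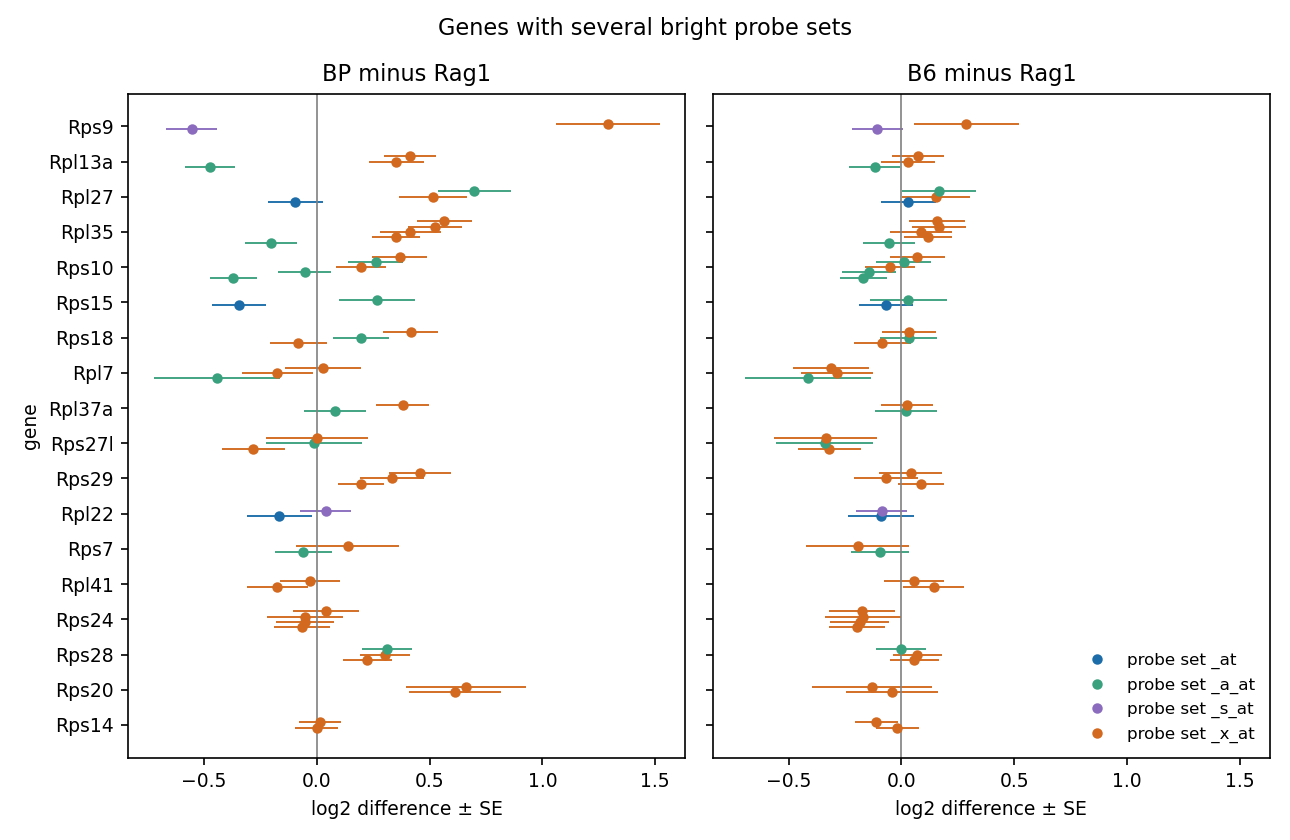
BP minus Rag1 (left) and B6 minus Rag1 (right) differences in log2 units, with standard errors, for each bright probe set of the 18 genes that have at least 2 (vertical axis, ordered by the spread of the left panel); colours give the suffix. In 13 genes, among them Rps9, Rpl13a, Rpl27, Rpl35, Rps10 and Rps15, probe sets of the same gene lie on both sides of 0 in BP. The right panel is narrower.

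The comparison within a gene was possible for 18 genes, and for each the probe sets with the highest and the lowest difference were set side by side, as a description without a test because the differences chose them. The median gap between them was 0.29 in BP minus Rag1, and 0.099 in B6 minus Rag1 with the probe sets highest and lowest there. In 13 of the 18 genes the probe sets had opposite signs in BP minus Rag1, and in 8 of 18 in B6 minus Rag1. These patterns were not particular to ribosomal proteins: among 199 other genes with at least 2 bright probe sets the median gaps were 0.55 and 0.15, and signs were opposite in 52.3% and 33.2%, beside 72.2% and 44.4% of the members. The probe set that stood higher carried the suffix _x_at in 14 genes and the lower in 8. Gaps were widest in Rps9 (1.85), Rpl13a (0.88), Rpl27 (0.79), Rpl35 (0.77), Rps10 (0.74) and Rps15 (0.61).

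The ratio of these probe sets on the same array removes differences in the total and shows unequal change, though its level has no meaning of its own. For Rpl27, 1448217_a_at over 1416099_at was -1.77, -1.72 and -1.71 on the log2 scale in Rag1, -0.85, -0.85 and -0.78 in BP and -1.56, -1.82 and -1.32 in B6. The 3 BP arrays lay close together, BP replicate 2 included, and B6 overlapped Rag1. For Rps10, one of the genes mutated in Diamond-Blackfan anaemia, 1439374_x_at over 1416719_a_at was -0.74, -0.69 and -0.65 in Rag1, 0.024, -0.027 and 0.092 in BP and -0.51, -0.58 and -0.37 in B6. For Rpl35, 1436840_x_at over 1416243_a_at was -0.25, -0.15 and -0.15 in Rag1, 0.53, 0.60 and 0.66 in BP and 0.0078, -0.085 and 0.19 in B6. In both genes B6 lay between the other groups without overlapping either.

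Rps9 gave -2.01, -2.01 and -1.74 in Rag1, -0.40, 0.47 and -0.16 in BP and -1.39, -1.75 and -1.34 in B6. Its BP arrays spread widest of these genes, and all lay above the others. Rps15, a small subunit protein, gave -0.87, -0.81 and -0.54 in Rag1, -0.33, 0.20 and -0.14 in BP and -0.52, -0.86 and -0.52 in B6. Over the 18 genes, the ratios of BP and Rag1 arrays did not overlap in 12 (66.7%) and those of B6 and Rag1 in 4 (22.2%). Among the 199 other genes, with probe sets chosen the same way, these shares were 59.8% and 25.1%, and because the BP minus Rag1 difference chose the probe sets, the first share may be raised by the choice. In Rps20 and Rps14 the gap was small: their bright probe sets differed by 0.050 and 0.015 in BP minus Rag1, and the ratios of BP and Rag1 arrays overlapped.

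**Figure D4:**
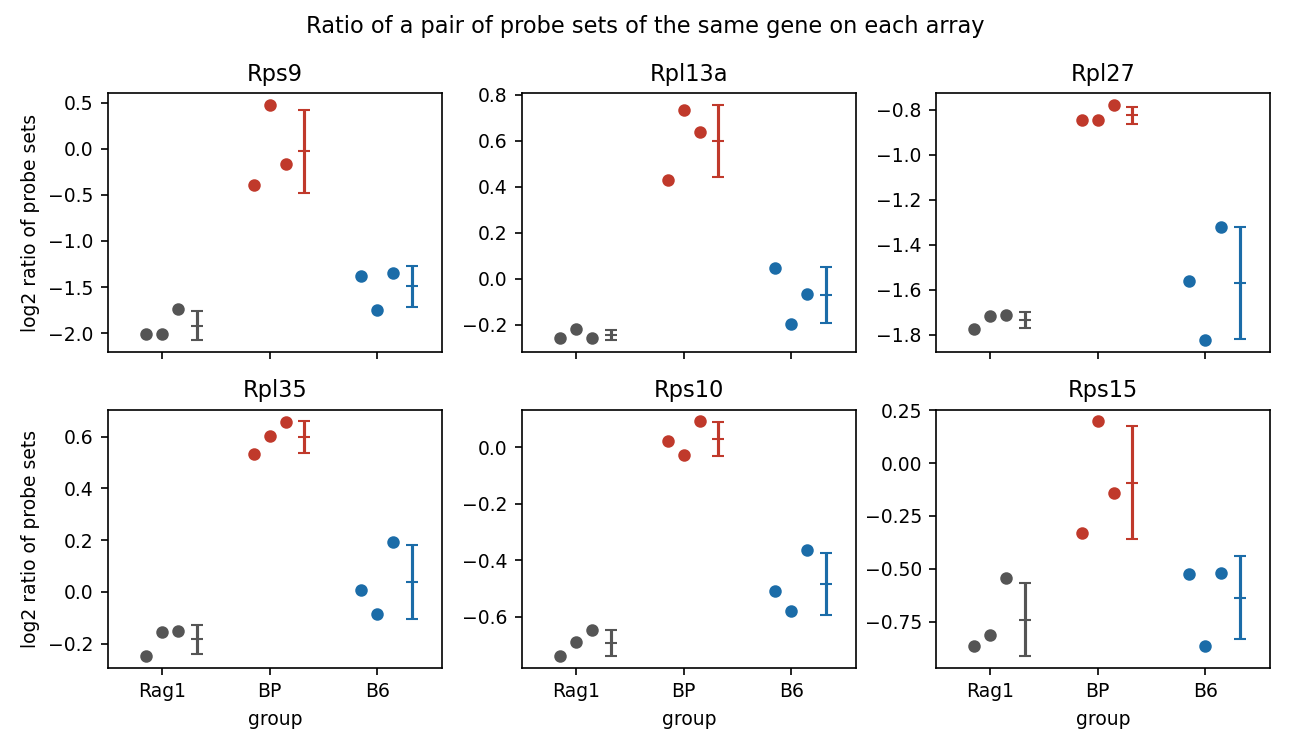
Log2 ratio, on each array, of the probe set with the highest to that with the lowest BP minus Rag1 difference for the 6 genes with the widest gap (vertical axis, log2 of the ratio of deposited intensities); points are arrays and bars the group mean with its SD (n = 3). All 3 BP points lie above all other points in each panel. The genes and probe sets were chosen by their BP minus Rag1 differences, which may raise the separation of BP from Rag1.

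The small subunit had 49 tested probe sets of 21 genes, and 1 rose and 1 fell in BP, both of Rps9. Of all tested probe sets 1.1% rose and 2.7% fell. Rps2 and Rps3, which line the mRNA entry channel, had no call among 4 probe sets: Rps3 1435151_a_at differed by -0.11 ± 0.11 (adjusted p = 0.616) and its 95% interval ran from -0.34 to 0.12. Rps6, the protein that S6 kinases phosphorylate, read 181, 141 and 201 in Rag1, 177, 347 and 248 in BP and 181, 162 and 208 in B6. The deposited values of BP overlapped those of Rag1, and the difference of 0.62 ± 0.22 did not pass (adjusted p = 0.142), though it did without BP replicates 1 and 3 (0.771, adjusted p = 0.0381). Rpsa, also known as the laminin receptor, stood at 0.35 ± 0.14 in BP (adjusted p = 0.196), at 0.0586 without BP replicates 1 and 3 (adjusted p = 0.819) and at 0.503 without BP replicate 2 (adjusted p = 0.00672), and at 0.23 ± 0.14 in B6 (adjusted p = 0.999).

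Paralogues of the small subunit were set beside their partners. Rps4x, the X-linked gene, differed by 0.06 ± 0.10 in BP (adjusted p = 0.785) with an interval from -0.15 to 0.28, and its autosomal paralogue Rps4l, at intensities of 263 to 544, by -0.19 ± 0.22 (adjusted p = 0.692). Rps27l differed by -0.28 ± 0.14 (adjusted p = 0.29) and the dim probe set of Rps27 by -0.74 ± 0.25 (adjusted p = 0.118). None of them passed the test in any of the 3 comparisons, and without BP replicate 2 the Rps27 difference did (-0.915, adjusted p = 0.021).

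The large subunit had 40 tested probe sets of 22 genes, of which 4 rose and 2 fell in BP. Of all tested probe sets 1.1% rose and 2.7% fell, and of bright probe sets of other genes 9.93% were called. The stalk, which recruits elongation factors, was represented by 3 genes with no call. Its base protein Rplp0 read 5064, 4869 and 5522 in Rag1, 2716, 6252 and 2504 in BP and 4394, 4498 and 4401 in B6. BP replicates 1 and 3 were the lowest of the 9 arrays and BP replicate 2 the highest, and the difference was -0.43 ± 0.23 (adjusted p = 0.324). The value turned sign with the BP arrays used: it was -0.781 without BP replicate 2 (adjusted p = 0.00019) and 0.252 without BP replicates 1 and 3 (adjusted p = 0.172). Array weights gave -0.671 (adjusted p = 0.00398) and the actin ratio as a covariate 0.346 (adjusted p = 0.187). Rplp2, a mobile arm of the stalk, stood at 0.35 ± 0.15 (adjusted p = 0.203), and the dim Rpl12, at the stalk base, at -0.63 ± 0.32 (adjusted p = 0.306). Both passed without BP replicates 1 and 3, at 0.606 (adjusted p = 0.0167) and -1.3 (adjusted p = 0.0129).

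At the exit tunnel 12 probe sets of 5 genes were tested and 2 rose, both of Rpl35, where 1.1% of all tested probe sets rose. Rpl4, which reaches into the tunnel, differed by -0.23 ± 0.11 (adjusted p = 0.284), or by -0.321 without BP replicate 2 (adjusted p = 0.0286), Rpl19 by -0.15 ± 0.12 (adjusted p = 0.557) and the dim Rpl39 by 0.29 ± 0.30 (adjusted p = 0.662). Rpl22, needed for the development of most T cells, read 5343, 5259 and 5858 in Rag1, 5585, 5055 and 5256 in BP and 5292, 4992 and 5215 in B6 with 1453118_s_at. The 3 groups overlapped, at 0.04 ± 0.11 for BP (adjusted p = 0.898) and -0.09 ± 0.11 for B6 (adjusted p = 0.999). Of the 6 Diamond-Blackfan genes, with 17 probe sets, Rpl11 fell and no other was called, where 3.8% of all tested probe sets were called.

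The 5 genes with the highest readings had no call. Rps29 1415833_x_at differed by 0.20 ± 0.10 in BP (adjusted p = 0.311), Rpl41 1455578_x_at by -0.18 ± 0.14 (adjusted p = 0.524), Rps28 1423763_x_at by 0.22 ± 0.11 (adjusted p = 0.276), Rpl7a by -0.13 ± 0.10 (adjusted p = 0.549) and Rpl38, a protein tied to the translation of homeobox mRNAs, by 0.20 ± 0.10 (adjusted p = 0.291). Other bright probe sets of these genes gave larger values, which reached 0.46 ± 0.14 in Rps29 (1437413_x_at, adjusted p = 0.0908) and 0.31 ± 0.11 in Rps28 (1451101_a_at, adjusted p = 0.145). Both passed without BP replicates 1 and 3 (0.696, adjusted p = 0.0047, and 0.443, adjusted p = 0.0314), as did Rpl41 1455578_x_at (-0.474, adjusted p = 0.0217). Among the dimmest tested genes, Rps25 read 87.9, 91.1 and 123 in Rag1 and 135, 146 and 171 in BP, at 0.66 ± 0.24 (adjusted p = 0.157), or 0.864 without BP replicate 2 (adjusted p = 0.013), and Rpl14 differed by 0.10 ± 0.37 (adjusted p = 0.92).

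One array carried several extreme values. Rpl27a 1437729_at read 201 on BP replicate 2 and between 1659 and 2860 on the other 8 arrays. Its BP minus Rag1 difference was -0.77 ± 0.83 (adjusted p = 0.675) with that array and 0.615 (adjusted p = 0.0153) without it. In Rps20 the same array was the highest: 1456373_x_at read 3289, 2228 and 3123 in Rag1, 2904, 7290 and 2975 in BP and 2600, 2349 and 2745 in B6, and its difference was 0.66 ± 0.27 (adjusted p = 0.192), 0.282 without that array (adjusted p = 0.168) and 1.4 with it as the lone BP array (adjusted p = 0.000414). Of the 69 bright members 34 (49.3%) had their highest value on BP replicate 2 and 12 (17.4%) their lowest, where 20.8% and 24.9% of all tested probe sets did. Rag1 replicate 2 held the lowest value of 29 bright members (42%), against 11.1% of all.

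B6 and BP were compared directly, and none of 89 member probe sets was called (0 of 89, where 0.633% of all tested probe sets were called by limma). At an unadjusted p under 0.05 there were 24 (27%, against 14.6% of all), 6 higher (9.36% of all were) and 18 lower in B6 (5.29% of all). Every B6 array lay below every BP array in 29 member probe sets (32.6%, against 7.33% of all) and above in 8 (8.99%, against 11.3%). Both kinds of count were made with quantile normalization only. The member median was -0.12, beside 0.042 for all tested probe sets, and it turned to 0.113 with median centring. Bright _x_at probe sets had a median of -0.27, with 34 of 36 below 0 (18 of 36 with median centring). The smallest p-values belonged to Rps9 (1434624_x_at, -1.0 ± 0.23, adjusted p = 0.0868) and Rpl37 (-0.73 ± 0.18, adjusted p = 0.0983). The other bright probe set of Rps9 followed, with a difference above 0 (1433689_s_at, 0.45 ± 0.11, adjusted p = 0.105). After it came Rpl10a (-0.46 ± 0.13, adjusted p = 0.141) and Rpl35 (-0.41 ± 0.12, adjusted p = 0.156). Rpl27 came next (-0.53 ± 0.16, adjusted p = 0.161). The bright probe sets of Rps9 thus went opposite ways here too. The count was 9 without BP replicate 2 (10.1%, against 11.3% of all) and 28 without BP replicates 1 and 3 (31.8%, against 21.1% of all).

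The genes around the ribosome also had no call between B6 and Rag1, in 7 lists of the translation and ribosome assembly machinery. Between BP and Rag1, 3.8% of all tested probe sets were called, 1.1% higher and 2.7% lower. Ribosomal proteins and paralogues outside the rule had 0 of 6 probe sets called there. Other mRNAs known for a terminal pyrimidine tract had 0 of 20, and S6 kinases with mTOR regulators 0 of 11. Of 12 elongation factor probe sets 1 fell, for Eif5a, which carries the amino acid hypusine (-0.94 ± 0.15, adjusted p = 0.0123). Of 55 ribosome assembly probe sets 1 rose and 2 fell: Nop56, of the box C/D particles, rose by 0.83 ± 0.20 (adjusted p = 0.045), nucleolin (Ncl) differed by -1.41 ± 0.21 (adjusted p = 0.00982) and Sbds, which readies the large subunit, by -0.74 ± 0.18 (adjusted p = 0.0457). Ncl read 1385, 1630 and 1606 in Rag1, 412, 773 and 519 in BP and 1003, 1642 and 1149 in B6, with BP below both other groups. The calls of Eif5a, Nop56, Ncl and Sbds also held without BP replicates 1 and 3, at -0.936, 0.753, -1.22 and -0.722 (adjusted p from 0.00337 to 0.0435). Other probe sets of Ncl and Nop56 had no call and lay on both sides of 0. Ncl was 1 of 2 genes of these lists, with Eif5a, that also differed between B6 and BP (1.1 ± 0.21, adjusted p = 0.0422).

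Single markers of other cells differed in BP as well. Of 9 epithelial marker genes Epcam fell (-0.47 ± 0.11, adjusted p = 0.0389), while its other probe set stood at -0.14 (adjusted p = 0.86). The epithelial list as a whole had 5 probe sets above and 7 below 0 with a median of -0.093, among them Krt18 at 0.39 (adjusted p = 0.29). Of 5 smooth muscle genes Myh11 (-1.51 ± 0.25, adjusted p = 0.0134) and Des (-0.69 ± 0.17, adjusted p = 0.0485) fell. The smooth muscle list as a whole had 4 probe sets above and 4 below 0 with a median of -0.068, among them a probe set of Acta2 at 0.35 (adjusted p = 0.166), with sums of 8526 to 10790 in Rag1, 7419 to 10379 in BP and 8215 to 9800 in B6. Alas2, made in red cell precursors, rose by 1.58 ± 0.28 (adjusted p = 0.0172), from 7.92 to 28.5 in Rag1 to between 53.4 and 107 in BP. These 4 calls held without BP replicates 1 and 3. T cell, B and plasma cell and macrophage markers had no call between BP and Rag1. The part of these shifts in the ribosomal protein differences was not tested.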

How the data were processed

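The labels describe biotin-labelled cRNA from 20 µg of total RNA on Affymetrix arrays. The deposited values were linear intensities of 45101 probe sets, from 1 to 21694; of the software behind them, the authors' labels and headers say nothing, so it counts as not given in the sources used here. Every column belonged to a labelled sample. Array medians ran from 29.4 to 48.0. Values were taken as log2(value + 16) and quantile-normalized, which understates changes of dim genes; 64 control probe sets and the lowest 40% by mean (under 5.30, an intensity of about 23.5) were left out, which left 27022. Intensities, and overlaps of groups described beside them, are as deposited, and ratios are taken from them; differences and counts of groups without overlap are on the normalized scale.

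Groups were compared with limma 3.58.1 in R 4.3.3: 1 fit of all 9 arrays with 6 residual degrees of freedom, intensity trend, two-sided, Benjamini-Hochberg adjustment over all tested probe sets, threshold 0.05. The fit takes 1 spread for all groups, although the median standard deviation of all tested probe sets was highest in BP (0.44, against 0.21 and 0.23). Where BP varied more, p-values of BP comparisons can thus be too small and B6 minus Rag1 intervals too wide. With only the groups compared, all calls went from 1027 to 183 for BP minus Rag1 and from 89 to 338 for B6 minus Rag1. The fit was tested on data simulated with the same spread in every group. The platform annotation gave 34945 probe sets a single symbol, 932 several and 9160 none; all 100 members were found in RefSeq's GRCm38.p6 genes. Promoter sequences are RefSeq's. Values were summarised and drawn with Python 3.11.15, pandas 2.3.3, scipy 1.17.1 and matplotlib 3.10.9.

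Genes named were those called in a comparison, the 5 smallest p-values where fewer than 5 were called, the 5 brightest and 5 dimmest tested genes, Rplp0, Rplp2, Rpsa, the paralogues with their partners, and members with a known second function. Rps10, Rps15, Rps14, Rps20, Rpl27a, Rpl4 and Rpl19 were also named after their values were seen, as were the bright class and the comparison by suffix. The members and all lists were chosen with earlier results of these data known. Alternatives were other scalings, pseudocounts, filters, moderation, array weights, the actin ratio as a covariate, gene means, leaving out shared probe sets or arrays, and a replicate block.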

Additional observations from a re-analysis of the deposited data

How the results depend on the processing

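No ribosomal protein probe set was called between B6 and Rag1 under any of the alternatives run. The share of all tested probe sets called follows each count. Leaving out the members with the suffixes _s_at and _x_at did not change that share, which remained 3.8%. For BP minus Rag1 the main count of 8 (3.8% of all) became 4 with the values as deposited (2.85%) and 4 with median centring (4.49%), 3 with no filter (1.7%, 100 member probe sets in the test), 0 with only the groups compared (0.677%), 1 with no intensity trend (1.92%), 19 with array weights (14.9%), 21 with the actin ratio as a covariate (15.5%), 28 without BP replicates 1 and 3 (22.1%), 2 of 43 genes with the mean over the probe sets of a gene (3.48%), and 3 without the suffixes _s_at and _x_at (of 48). Leaving out single arrays gave 0 to 25 (0.0666% to 19.6%). For B6 minus BP the main count of 0 (0.633% of all) became 1 with median centring (1.85%), 2 with array weights (3.17%), 15 with the actin covariate (12.9%) and 28 without BP replicates 1 and 3 (21.1%), and single arrays left out gave 0 to 9 (0.207% to 11.3%).

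Replicate numbers did not pair the samples: over 9 pairs of arrays with the same number the correlation of deviations ran from -0.19 to 0.23. With the replicate block the BP minus Rag1 count was 5 (2.96% of all), with 3 higher and 2 lower, and the other counts remained 0.

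The member median of B6 minus Rag1 moved from -0.038 to 0.079 with median centring. That of BP minus Rag1 moved from 0.036 to -0.0742 as deposited, -0.0974 with median centring, 0.119 with the actin covariate, 0.152 without BP replicates 1 and 3 and -0.0734 without shared probe sets. That of B6 minus BP moved from -0.12 to -0.0357 as deposited, 0.113 with median centring and 0.0712 without shared probe sets. Single arrays left out gave -0.074 to 0.0075, -0.038 to 0.10 and -0.16 to -0.094. As deposited, the median of all tested probe sets for B6 minus Rag1 was -0.123, against -0.010.

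Of named probe sets 2 turned sign with a call. Rpl27a ranged from -1.46 to 0.615 in BP minus Rag1 over single arrays left out, and reached 0.615 (adjusted p = 0.0153) and -0.658 in B6 minus BP (0.0186) without BP replicate 2. Rplp0 reached -0.458 in B6 minus BP (0.0208) without BP replicates 1 and 3. The causes were not tested. Signal and spread limit what 3 arrays a group can show: in BP minus Rag1 the interval lay within 1.5-fold for 39 of 89 probe sets, and 11 members were too dim to test.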

Other observations

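The mitochondrial ribosome, a separate particle with its own proteins, had calls in both directions in BP. Of 139 tested probe sets of 76 genes, 12 of 9 genes were higher in BP than in Rag1 and 2 of 2 genes lower, with a median of 0.15, where 1.1% of all tested probe sets were called higher and 2.7% lower. Without BP replicates 1 and 3 the counts were 28 higher and 8 lower of 138, and without BP replicate 2 they were 30 and 15 of 139, where 22.1% and 19.6% of all tested probe sets were called. Mrps24 rose by 1.28 ± 0.24 (adjusted p = 0.0206), from 273, 247 and 291 in Rag1 to 555, 772 and 594 in BP, with 356, 189 and 338 in B6. Mrpl13 rose by 1.36 ± 0.23 (adjusted p = 0.0148) and Mrpl11 1437839_x_at by 1.24 ± 0.23 (adjusted p = 0.0202). Mrpl9 1430976_a_at read 383, 452 and 305 in Rag1, 21.1, 92.4 and 19.6 in BP and 72.3, 145 and 51.0 in B6, a difference of -2.93 ± 0.38 (adjusted p = 0.00719). Mrpl44 was called in both directions, at 0.86 ± 0.20 with 1452144_a_at (adjusted p = 0.0408) and -1.55 ± 0.30 with 1430990_s_at (adjusted p = 0.0228).

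Initiation factors also had calls in both directions. Of 70 tested probe sets of 26 genes, 1 was higher in BP (Eif3i, 0.96 ± 0.23, adjusted p = 0.0452) and 7 of 6 genes lower, beside 1.1% and 2.7% of all tested probe sets. Without BP replicate 2 the list had 5 higher and 22 lower of 71, where 19.6% of all tested probe sets were called. The median of the list was -0.20, and it was -0.0065 without BP replicates 1 and 3 and -0.32 without BP replicate 2. In the main fit 25 probe sets of the list lay above 0 and 45 below. Without BP replicates 1 and 3 these were 34 and 35, and without BP replicate 2 they were 24 and 47. The shift of the list to lower values was thus not seen without BP replicates 1 and 3. Eif4a1, the helicase that unwinds the start of mRNAs, read 1402, 1554 and 1674 in Rag1, 458, 902 and 396 in BP and 1044, 1696 and 1115 in B6 with 1427058_at, a difference of -1.41 ± 0.23 (adjusted p = 0.0131) that became -1.0 without BP replicates 1 and 3 (adjusted p = 0.0119). BP replicates 1 and 3, which had the highest actin ratios, were the lowest of the 9 arrays. The cap-binding Eif4e differed by -1.10 ± 0.24 (adjusted p = 0.0336) and Eif4b by -0.70 ± 0.15 (adjusted p = 0.0334). With the actin ratio as a covariate the Eif4e call was lost (-0.77, adjusted p = 0.110). Other probe sets of Eif4e, Eif4b and Eif3i had no call. They stood at -0.13, 0.40 and 0.12 for Eif4e, 0.027 and -0.45 for Eif4b and -0.020 for Eif3i. For Eif4a1 another probe set was also called lower (-3.48, adjusted p = 0.0134), and the remaining one was not (-0.27, adjusted p = 0.464).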
